A study of Homo sapiens with 12 samples.

Results

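The regulators of epithelial and mesenchymal splicing described here were 8 genes, *ESRP1*, *ESRP2*, *RBM47*, *QKI*, *RBFOX2*, *MBNL1*, *MBNL2* and *PTBP1*. They were chosen by symbol, and all 8 were found among the 23346 genes measured. Each encodes a protein that binds pre-mRNA and decides, from where it binds beside an exon, whether that exon is kept or skipped. ESRP1 and ESRP2 are known as the epithelial regulators and hold the epithelial isoforms of *FGFR2*, *CD44*, *CTNND1* and *ENAH*, and RBM47 is known to favour epithelial isoforms too. QKI and RBFOX2 are known for the exons that switch when epithelial cells turn mesenchymal, the MBNL proteins for developmental switches towards the adult pattern, and PTBP1 as a broadly expressed repressor of exons.

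RNA-seq had been carried out on SW1990 and CFPAC-1, established cell lines from human pancreatic adenocarcinoma, after cells stained with the antibody GCTM-5 were sorted by flow cytometry. GCTM-5 recognises a cell surface antigen complex related to CA 19-9. The 4 groups were SW1990 negative, SW1990 positive, CFPAC-1 negative and CFPAC-1 positive cells, each with 3 samples, and the gates left out cells of intermediate staining. Neither line carried a transgene or a drug treatment, both were grown as monolayers in serum, and each line stands for the tumour of a single patient. The sources describe triplicate sorts, so the p-values measure the spread between sorts of the same culture line. A level is given as RPKM, the reads of a gene divided by its length and by the library size. It does not remove a shift of most genes between samples, for which median centring was used as an alternative. RPKM counts all transcripts of a gene together, so no isoform was measured.

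Library totals ran from 9969697 reads in CFPAC-1 positive replicate 3 to 26159330 in CFPAC-1 positive replicate 1. All 8 regulators passed the filter on low values, with at least 344 reads behind each value. The labels name an adenocarcinoma, and the epithelial markers *EPCAM*, *CDH1*, *KRT8*, *KRT18*, *KRT19*, *CLDN4* and *CLDN7* were present in all 4 groups. In SW1990 they differed strongly between the sorted populations. Their summed level was 1439 to 1676 RPKM in negative and 4588 to 4952 RPKM in positive cells, and 7 of 7 rose over 2-fold. The mesenchymal markers *VIM*, *CDH2*, *FN1* and *SPARC* summed to 1257 to 1419 RPKM in SW1990 negative and 199 to 369 RPKM in SW1990 positive cells, and 4 of 4 fell. Of all genes tested in SW1990, 4.59% rose and 7.48% fell over 2-fold with p under 0.01 in limma. In CFPAC-1 0 of the 7 epithelial markers were called in limma, 3 having an unadjusted p under 0.05. By the same rule 5.65% of all genes were called higher and 4.13% lower in CFPAC-1. Of the 4 mesenchymal markers 1 was called lower there, *SPARC*, which was at most 0.544 RPKM in any CFPAC-1 sample. At an adjusted p under 0.05 alone, 2 epithelial markers were higher and 1 lower in CFPAC-1. By that rule 0 mesenchymal markers were higher and 3 lower. Of all genes 22.3% were higher and 14.2% lower. Among markers of other cell types, *THY1* was at 0 in all samples, *PTPRC* reached at most 0.0488 RPKM, and *CD3E* at most 0.0704 RPKM. The other 3 of 5 leukocyte markers were detected. *CD68* was at 109 to 162 RPKM and *LYZ* at 42.8 to 76.9 RPKM in CFPAC-1, and at 15.1 to 46.7 and 0.816 to 1.79 RPKM in SW1990. *CD14* fell in the positive cells of both lines, by 1.97 on the log2 scale in SW1990 and by 1.54 in CFPAC-1, and *CD68* fell by 1.02 in SW1990. The summed leukocyte level was 35.6 to 49.9 RPKM in SW1990 negative and 16.2 to 34.7 RPKM in SW1990 positive cells. The endothelial marker *CDH5* was at 15.6 ± 1.82 RPKM in SW1990 negative and 1.33 ± 0.255 RPKM in SW1990 positive cells (SD, n = 3). The fibroblast markers *LUM* and *PDGFRB* fell in SW1990 positive cells as well, from 13.2 ± 5.28 to 2.43 ± 0.603 RPKM and from 1.76 ± 0.266 to 0.0381 ± 0.0168 RPKM. The leukocyte, fibroblast and endothelial markers called in SW1990 were all lower in positive cells, and their part in the changes below was not tested.

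Upstream sequence was available from RefSeq (GRCh38.p14) for 4 of the 8 genes, *RBM47*, *MBNL1*, *MBNL2* and *PTBP1*, with 11 transcription starts among them. The entries for *ESRP1*, *ESRP2*, *QKI* and *RBFOX2* were missing. Windows of the 250 bases before each start and a shorter stretch after it were searched on both strands for CAGGTG. This is the E-box that ZEB and SNAI repressors are known to bind, which reads CACCTG on the opposite strand. It occurred in 1 of the 11 windows, against 20.6% of the 35116 promoter windows searched in the same way. The match lay before 1 start of *RBM47*, and the other *RBM47* starts searched had none. This window is shown because it was the only 1 of the 11 with the E-box. Which start is used in these cells was not measured. The bases printed are the 250 before the start, chr4:40514582-40514831 of GRCh38.p14 on the minus strand. They are written 5′ to 3′ in the direction of the gene. The E-box is in capitals, its first base 208 bases before the start.
RBM47 upstream window: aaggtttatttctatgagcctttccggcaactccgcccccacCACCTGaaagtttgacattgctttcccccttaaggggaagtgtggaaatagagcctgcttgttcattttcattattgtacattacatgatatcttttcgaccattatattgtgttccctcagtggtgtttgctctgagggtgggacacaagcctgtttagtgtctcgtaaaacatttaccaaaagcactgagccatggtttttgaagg
The motif AACNNGTT, which GRHL factors are known to bind and which reads the same on both strands, was in 0 of the 11 windows and in 3.52% of all windows. A match describes the letters only, and binding was not measured.

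The first question was how the regulators differed between the antigen positive and negative cells of each line. In SW1990, *ESRP1* rose 11.8-fold and *ESRP2* 3.73-fold in positive cells. *RBM47* and *MBNL2* were higher and *QKI*, *MBNL1* and *RBFOX2* lower by less than 2-fold, each with positive and negative samples that did not overlap, and *PTBP1* overlapped. In CFPAC-1, *ESRP2* and *PTBP1* were higher in positive cells by less than 2-fold, and the other 6 regulators overlapped between the populations. The study's thresholds, a fold change over 2 and p under 0.01 (read here as unadjusted), served to call a gene. By this rule 2 of the 8 regulators were called in SW1990, both higher, where 12.1% of the 16236 genes tested were called (4.59% higher), and 0 of 8 in CFPAC-1, where 9.78% were. In limma 2 of the 8 had an unadjusted p under 0.05 in CFPAC-1, and voom on the recovered reads called 0 there as well. The share of all genes under that unadjusted limit was not counted, here or for the lists. At an adjusted p under 0.05 without a fold threshold, 7 of 8 passed in SW1990 (4 higher and 3 lower, against 28.2% of all genes, 11.3% higher and 16.9% lower) and 2 of 8 in CFPAC-1 (both higher, against 36.5%, 22.3% higher). All positive samples lay above all negative samples for 4 of the 8 in SW1990 and below them for 3, against 17.9% and 25.4% of all genes. In CFPAC-1 they lay above for 2 and below for 0 of the 8, against 28.1% and 20.4% of all genes.

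**Figure D1:**
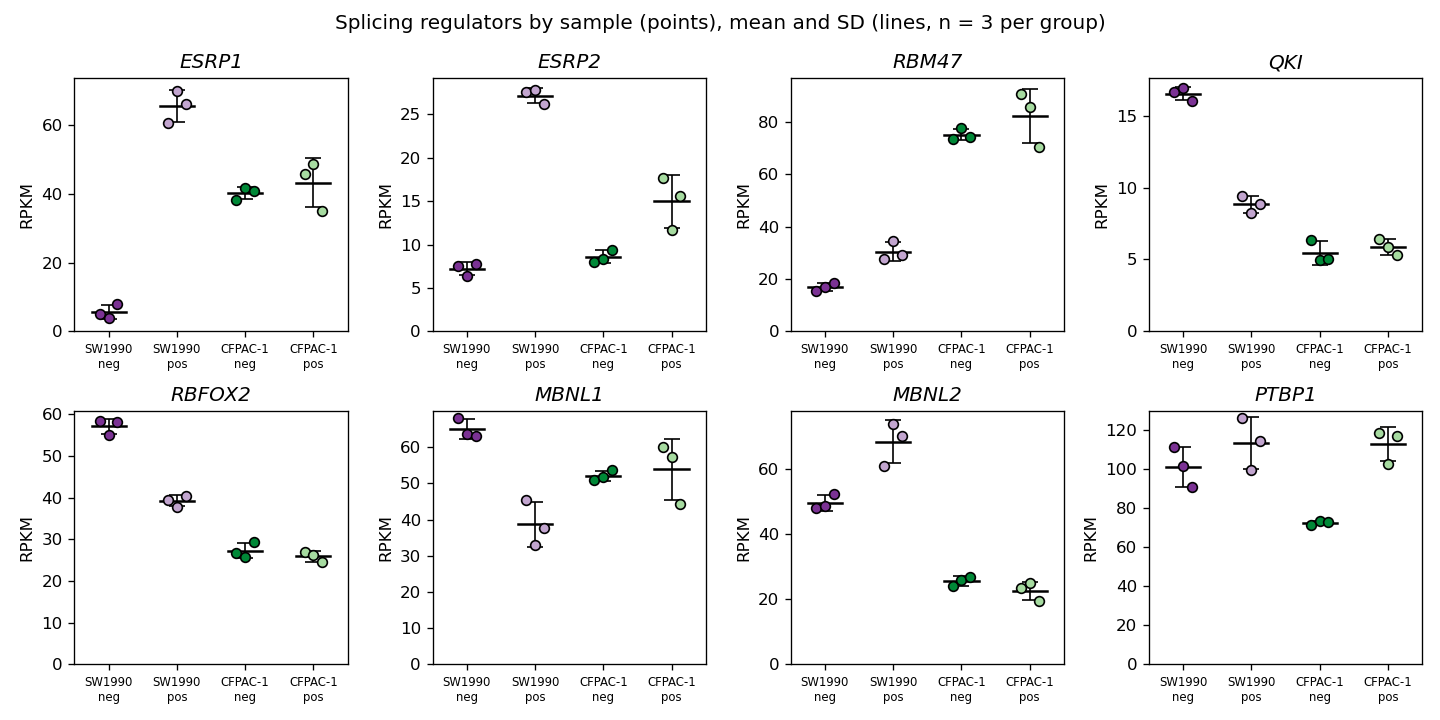
RPKM of each of the 8 regulators (vertical axis, from 0) in the 12 samples, by line and GCTM-5 population; points are samples, the long lines group means and the short lines SD (n = 3). *ESRP1* in SW1990 negative cells lies between 3.88 and 8.04 RPKM, below every other sample, and *QKI* in the same cells lies between 16.0 and 16.9 RPKM, above every other sample.

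*ESRP1* (GRCh37, chromosome 8, 95653302 to 95719694, plus strand) was at 5.18, 3.88 and 8.04 RPKM in the SW1990 negative samples and at 60.7, 70.0 and 66.2 RPKM in the SW1990 positive samples. In CFPAC-1 it was at 38.4, 41.7 and 41.0 RPKM in negative and at 45.8, 48.7 and 35.2 RPKM in positive cells. The SW1990 negative samples were thus the only group with a low level, and the CFPAC-1 populations overlapped. The log2 change was 3.56 (SE 0.21, adjusted p = 2.69e-07) in SW1990. In these bulk samples, fewer cells with *ESRP1* RNA and less *ESRP1* RNA per cell cannot be told apart. In CFPAC-1 the log2 change was 0.09 with a 95% interval of -0.37 to 0.54 (adjusted p = 0.784), an interval that reaches from 0.775-fold to 1.45-fold. The changes in the lines differed by 3.48 (SE 0.29, adjusted p = 1.13e-05). From the lowest group to the highest, *ESRP1* was at 5.70 ± 2.13 RPKM in SW1990 negative, 40.4 ± 1.75 in CFPAC-1 negative, 43.2 ± 7.16 in CFPAC-1 positive and 65.6 ± 4.68 in SW1990 positive cells (SD, n = 3). Only the middle neighbours overlapped.

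*ESRP2* (chromosome 16, 68262936 to 68272005, minus strand), the paralog of *ESRP1*, was at 7.53, 6.37 and 7.79 RPKM in SW1990 negative and at 27.6, 27.8 and 26.1 RPKM in SW1990 positive cells. CFPAC-1 samples had 8.05, 8.39 and 9.43 RPKM in negative and 17.6, 11.7 and 15.6 RPKM in positive cells. *ESRP2* was thus higher in the positive samples of both lines, and in both the negative samples lay below 10 RPKM. It rose in SW1990 with a log2 change of 1.90 (SE 0.14, adjusted p = 1.42e-06). In CFPAC-1 the log2 change was 0.77 (SE 0.14, adjusted p = 0.00148), or 1.71-fold with an interval of 1.38 to 2.11. The SW1990 change exceeded the CFPAC-1 change by 1.13 (adjusted p = 0.00152). Between the negative populations the difference was -0.25 (SW1990 minus CFPAC-1, interval -0.56 to 0.05, adjusted p = 0.128), although the samples did not overlap. *ESRP1* stood at 0.777 ± 0.225 times the level of *ESRP2* in SW1990 negative cells and at 2.42 ± 0.189 times in SW1990 positive cells. The same quotient was 4.70 ± 0.319 in CFPAC-1 negative and 3.01 ± 1.02 in CFPAC-1 positive cells (SD, n = 3). *ESRP1* was thus the more abundant of the pair in 3 of the 4 groups. How reads shared by paralogs were assigned is not given in the sources used here.

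*RBM47* (chromosome 4, 40425284 to 40632892, minus strand), whose E-box window is printed above, was at 15.5, 17.0 and 18.6 RPKM in SW1990 negative and at 27.7, 34.5 and 29.2 RPKM in SW1990 positive cells. CFPAC-1 levels were 73.5, 77.7 and 74.2 RPKM in negative and 90.6, 85.6 and 70.4 RPKM in positive cells. Every CFPAC-1 sample lay above every SW1990 sample. In SW1990 the log2 change with the antigen was 0.83 (SE 0.11, adjusted p = 1.69e-04), or 1.78-fold with an interval of 1.5 to 2.11, so that it stayed under the fold threshold. In CFPAC-1 it was 0.12 (interval -0.13 to 0.37, adjusted p = 0.433). The difference between the lines in this change was 0.71 (SE 0.16, adjusted p = 0.00682). The difference in level between the lines was the larger quantity, with SW1990 below CFPAC-1 by a log2 difference of -2.14 in negative cells (adjusted p = 1.16e-08) and of -1.43 in positive cells (adjusted p = 5.55e-07). The antigen positive SW1990 cells therefore had *ESRP1* above the CFPAC-1 level and *RBM47* below it.

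*QKI* (chromosome 6, 163835032 to 163999624, plus strand), a regulator of mesenchymal exons and of circular RNA formation, was at 16.6, 16.9 and 16.0 RPKM in SW1990 negative and at 9.40, 8.21 and 8.86 RPKM in SW1990 positive cells. CFPAC-1 samples had 6.39, 4.93 and 5.00 RPKM in negative and 6.42, 5.86 and 5.31 RPKM in positive cells. The SW1990 negative samples were the highest and the CFPAC-1 samples the lowest, with the SW1990 positive samples between them. The log2 change in SW1990 was -0.90 (SE 0.12, adjusted p = 1.44e-04), a level in positive cells of 0.536 times that in negative cells with an interval of 0.447 to 0.643. In CFPAC-1 it was 0.11 (interval -0.15 to 0.37, adjusted p = 0.50). The changes differed by -1.01 (SE 0.17, adjusted p = 0.00114). *QKI* was higher in SW1990 than in CFPAC-1, by a log2 difference of 1.59 in negative cells (adjusted p = 2.19e-07) and of 0.58 in positive cells (adjusted p = 0.00113).

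*RBFOX2* (chromosome 22, 36134783 to 36424872, minus strand) binds the GCATG element and is known to act on many exons that switch in the mesenchymal state. It was at 58.3, 54.9 and 58.0 RPKM in SW1990 negative and at 39.4, 37.8 and 40.4 RPKM in SW1990 positive cells. CFPAC-1 levels were 26.7, 25.8 and 29.3 RPKM in negative and 26.9, 26.3 and 24.5 RPKM in positive cells. The order of the groups was that of *QKI* on the SW1990 side, with SW1990 negative above SW1990 positive and both above CFPAC-1, whose populations overlapped. The log2 change was -0.54 (SE 0.08, adjusted p = 2.02e-04) in SW1990 and -0.07 (interval -0.24 to 0.09, adjusted p = 0.473) in CFPAC-1. These differed by -0.47 (adjusted p = 0.00743), a call that was lost when each sample was centred on its median (-0.32, adjusted p = 0.0543). Between the negative populations *RBFOX2* was higher in SW1990 by 1.06 (adjusted p = 1.39e-07), which dropped under 2-fold with median centring (0.88) and quantile normalization (0.99).

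The muscleblind genes differed in opposite directions in SW1990. *MBNL1* (chromosome 3, 151961617 to 152183569, plus strand) was at 68.1, 63.8 and 63.1 RPKM in SW1990 negative and at 45.3, 33.0 and 37.8 RPKM in SW1990 positive cells, and at 50.9, 51.7 and 53.7 RPKM in CFPAC-1 negative and 60.1, 57.4 and 44.3 RPKM in CFPAC-1 positive cells. *MBNL2* (chromosome 13, 97873688 to 98046374, plus strand) was at 47.9, 48.4 and 52.4 RPKM in SW1990 negative and at 60.9, 73.6 and 70.0 RPKM in SW1990 positive cells, and at 24.0, 25.8 and 26.8 RPKM in CFPAC-1 negative and 23.3, 24.9 and 19.3 RPKM in CFPAC-1 positive cells. In SW1990 the samples of both genes separated in opposite directions, and in CFPAC-1 the samples of both overlapped. The log2 change of *MBNL1* was -0.76 (SE 0.13, adjusted p = 8.06e-04) in SW1990 and 0.04 (interval -0.24 to 0.32) in CFPAC-1, and that of *MBNL2* was 0.46 (SE 0.11, adjusted p = 0.00654) and -0.19 (interval -0.42 to 0.04). The line difference in the change was -0.80 for *MBNL1* (adjusted p = 0.00694) and 0.64 for *MBNL2* (adjusted p = 0.00773). As a description, the level of *MBNL1* over that of *MBNL2* was 1.31 ± 0.108 in SW1990 negative, 0.577 ± 0.152 in SW1990 positive, 2.04 ± 0.0662 in CFPAC-1 negative and 2.39 ± 0.163 in CFPAC-1 positive cells (SD, n = 3). *MBNL2* exceeded *MBNL1* only in the SW1990 positive group. Its level was 3.03-fold higher in SW1990 than in CFPAC-1 among positive cells (interval 2.58 to 3.55, adjusted p = 1.09e-07).

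*PTBP1* (chromosome 19, 797075 to 812327, plus strand), a general repressor of exons, was the most abundant of the 8 genes in every group but CFPAC-1 negative, where *RBM47* was at 75.1 ± 2.23 and *PTBP1* at 72.3 ± 1.16 RPKM (SD, n = 3). It was at 111, 101 and 90.5 RPKM in SW1990 negative and at 126, 99.4 and 114 RPKM in SW1990 positive cells. CFPAC-1 samples had 71.1, 73.4 and 72.6 RPKM in negative and 118, 102 and 117 RPKM in positive cells. The CFPAC-1 negative samples were the low group, and the other 3 groups overlapped. The log2 change was 0.63 (SE 0.10, adjusted p = 8.34e-04), or 1.55-fold, in CFPAC-1 and 0.16 (interval -0.07 to 0.39, adjusted p = 0.287) in SW1990. The difference between these changes was -0.47 (adjusted p = 0.0343). This call did not hold on leaving out any of 9 of the 12 libraries, when the adjusted p was 0.0510 to 0.0820, nor with median centring, quantile normalization or no intensity trend. It held without SW1990 negative replicate 3, SW1990 positive replicate 1 or CFPAC-1 positive replicate 2.

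**Figure D2:**
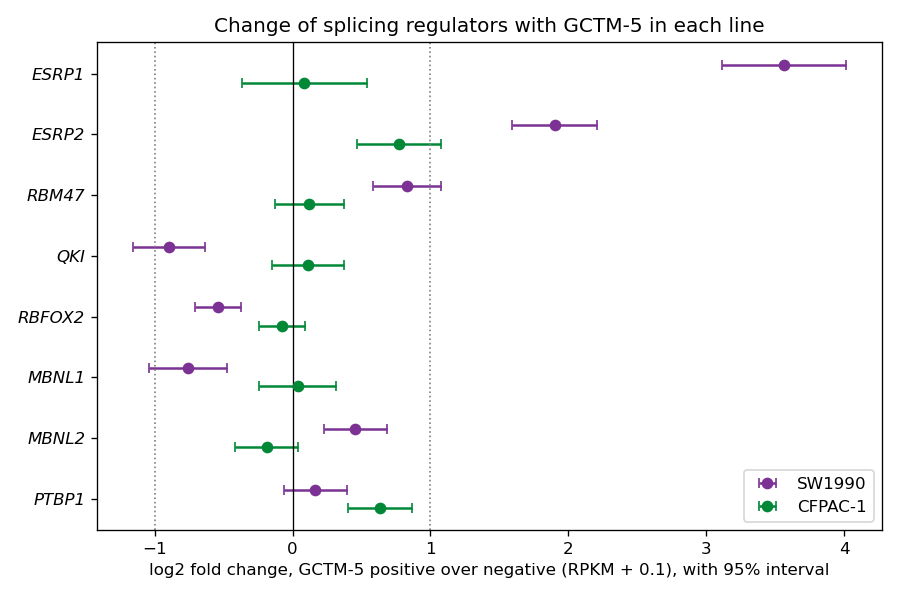
Log2 fold change of GCTM-5 positive over negative cells (horizontal axis) for each regulator in SW1990 (purple) and CFPAC-1 (green), from the limma fit to RPKM plus 0.1; bars are 95% intervals and dotted lines mark a 2-fold change. The SW1990 points run from -0.90 for *QKI* to 3.56 for *ESRP1*, and the CFPAC-1 points from -0.19 for *MBNL2* to 0.77 for *ESRP2*.

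The second question was whether the changes differed between the lines, and this was tested on the difference itself. It passed an adjusted p under 0.05 for 8 of the 8 regulators, with 4 changes higher and 4 lower in SW1990, where 26.9% of all genes tested passed (9.16% higher and 17.8% lower). With median centring 6 of 8 passed, *RBFOX2* and *PTBP1* being lost. The median size of the log2 change, without its sign, was 0.80 over the 8 regulators and 0.29 over all genes in SW1990, and 0.12 against 0.36 in CFPAC-1. In size, *ESRP1* had the largest difference of the 8, and those of *RBFOX2* and *PTBP1* were the smallest.

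Levels were then compared between the lines within each population. In negative cells 4 of 8 regulators were called, *QKI* and *RBFOX2* higher and *ESRP1* and *RBM47* lower in SW1990, where 36.9% of all genes were called (21.9% higher and 15.0% lower). By adjusted p alone 5 were higher and 2 lower, against 68.9% of all genes (40.7% higher and 28.2% lower). *ESRP1* was lower by a log2 difference of -2.87 (SE 0.21, adjusted p = 1.57e-07), a level of 0.137 times that in CFPAC-1. In positive cells 2 of 8 were called, *MBNL2* higher and *RBM47* lower in SW1990, against 28.5% of all genes (14.8% higher and 13.7% lower). By adjusted p alone 5 were higher and 2 lower there, against 62.3% of all genes (32.9% higher and 29.3% lower). *ESRP1* was there 1.53-fold (interval 1.12 to 2.09, adjusted p = 0.0221) and *ESRP2* 1.83-fold (interval 1.48 to 2.27, adjusted p = 1.81e-04) higher in SW1990. The *ESRP2* difference passed 2-fold without CFPAC-1 positive replicate 1 (log2 1.00). *PTBP1* differed by a log2 value of 0.00 with an interval of -0.22 to 0.23. The median of all genes in the negative comparison was 0.19 as deposited and 0.01 after centring, so a regulator's value there stands beside that shift.

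**Figure D3:**
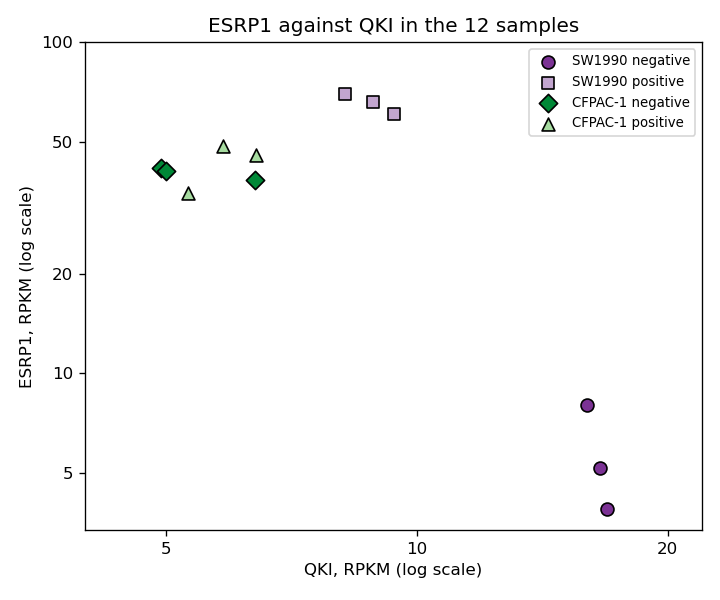
*ESRP1* (vertical axis, RPKM, log scale) against *QKI* (horizontal axis, RPKM, log scale), 1 point per sample and 1 symbol per group. The SW1990 negative samples lie apart at high *QKI* and low *ESRP1*, and the other 9 samples lie between 4.93 and 9.40 RPKM of *QKI* and between 35.2 and 70.0 RPKM of *ESRP1*.

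The balance of an epithelial and a mesenchymal regulator was described by the level of *ESRP1* over that of *QKI* in each sample. It was 0.312, 0.230 and 0.502 in SW1990 negative and 6.45, 8.53 and 7.47 in SW1990 positive cells. In CFPAC-1 it was 6.01, 8.46 and 8.20 in negative and 7.14, 8.32 and 6.62 in positive cells. The SW1990 negative samples were the only ones with more *QKI* than *ESRP1*, and the other 3 groups overlapped. Their means were 7.48 ± 1.04 in SW1990 positive, 7.56 ± 1.35 in CFPAC-1 negative and 7.36 ± 0.872 in CFPAC-1 positive cells, against 0.348 ± 0.140 in SW1990 negative cells (SD, n = 3). With *RBM47* in place of *ESRP1* the 2 lines did not meet. The level of *RBM47* over that of *QKI* was 1.03 ± 0.118 and 3.48 ± 0.651 in SW1990 negative and positive cells and 14.0 ± 2.24 and 14.0 ± 0.677 in CFPAC-1 negative and positive cells. The sum of all 8 regulators varied little by comparison, from 307 ± 6.92 RPKM in CFPAC-1 negative to 391 ± 6.48 RPKM in SW1990 positive cells.

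Family relatives of the 8 genes were examined next. *RBFOX1* and *KHDRBS2* were below the filter, with *RBFOX1* at 0 in all samples, and *RBFOX3* reached at most 0.338 RPKM. *MBNL3* was at 1.22 ± 0.259 RPKM in SW1990 negative and 1.86 ± 0.118 in SW1990 positive cells (log2 0.59, adjusted p = 0.0438), and at 3.78 ± 0.748 and 5.17 ± 0.778 in CFPAC-1. *PTBP3* was at 19.5 ± 0.242 and 31.9 ± 1.45 RPKM in SW1990 negative and positive cells (log2 0.71, adjusted p = 0.0025), and at 60.6 ± 1.87 and 60.3 ± 14.7 RPKM in CFPAC-1. *PTBP2*, the neuronal paralog, did not pass in either line (adjusted p = 0.225 and 0.512). *MBNL3* and *PTBP3* were more abundant in CFPAC-1, with log2 differences of -1.56 and -1.63 between the negative populations (SW1990 minus CFPAC-1). *KHDRBS1*, which encodes SAM68, was higher in CFPAC-1 positive cells (149 ± 13 against 109 ± 3.17 RPKM, log2 0.45, adjusted p = 0.00124).

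A wider list of 64 other splicing regulators, taken as the pathway around the 8, had 54 genes past the filter. In SW1990 0 of them rose and 5 fell in positive cells, where 4.59% of all genes rose and 7.48% fell. At an unadjusted p under 0.05 alone, for which no share of all genes was counted, 5 were higher and 8 lower in limma. With voom 5 were called. *RBM24* fell by 2.51 on the log2 scale and *NOVA2* fell by 2.28, from 1.06 ± 0.343 to 0.105 ± 0.0755 RPKM and from 1.11 ± 0.230 to 0.147 ± 0.0198 RPKM. *NOVA1* had 29 to 52 reads in negative and 2 reads in each positive sample. The mean RPKM of its negative samples was 12.5 times a floor of 3 reads per library. *SRRM3* (log2 -1.17) and *KHDRBS3* (log2 -1.06) completed the 5. These genes are known from neurons and muscle, and all but *KHDRBS3* and *SRRM3* were near or below 1 RPKM in SW1990. The *KHDRBS3* call was lost in limma without SW1990 negative replicate 2 (unadjusted p = 0.0135). It was lost too without SW1990 positive replicate 2 (unadjusted p = 0.0159) or 3 (unadjusted p = 0.0104), and with quantile normalization (log2 -0.97). With a pseudocount of 1 none of the 5 was called.

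In CFPAC-1 2 of the 54 rose and 0 fell, where 5.65% of all genes rose and 4.13% fell. At an unadjusted p under 0.05 alone, for which no share of all genes was counted, 19 were higher and 3 lower in limma. With voom 2 were called. *ELAVL2* had 1 to 3 reads in negative and 4 to 61 reads in positive samples. The mean RPKM of its positive samples was 11 times the floor of 3 reads. Positive replicate 3 alone was at 0.187 RPKM, beside 1.08 and 0.991 RPKM in the others. The *ELAVL2* call was lost with a pseudocount of 1 (log2 0.69). *HNRNPU*, a nuclear scaffold protein of the hnRNP group, rose from 39.8 ± 1.78 to 83.2 ± 9.95 RPKM (log2 1.05, adjusted p = 7.55e-05), and its change was just under 2-fold without CFPAC-1 positive replicate 1, with median centring (0.95) and with quantile normalization (0.93). At an adjusted p under 0.05 alone, 17 of the 54 were higher and 3 lower in CFPAC-1, against 22.3% and 14.2% of all genes, and 5 higher and 7 lower in SW1990, against 11.3% and 16.9%. The 12 hnRNP genes had a median log2 change of 0.38 in CFPAC-1, with 7 higher by adjusted p, and of 0.13 in SW1990, with 1 higher. The 10 SR protein genes had medians of 0.30, with 5 higher, and 0.07, with 1 higher. The share of all genes higher by this rule was 22.3% in CFPAC-1 and 11.3% in SW1990. The median of all genes was 0.05 in CFPAC-1 and -0.04 in SW1990. *PTBP1*, itself an hnRNP protein, had a CFPAC-1 change of 0.63 beside changes of 0.77 for *HNRNPL*, 0.94 for *HNRNPD* and 0.98 for *SRSF2*. Others were near 0 or below it, with *SRSF1* at 0.03, *SRSF6* at -0.07 and *HNRNPLL* at -0.175. The CFPAC-1 fit was above 0 for 11 of the 12 hnRNP and 8 of the 10 SR protein genes. The genes named beside *PTBP1* were chosen after their values were seen. Among the 54, the change differed between the lines for 13, 1 higher and 12 lower in SW1990, and 8 with median centring. Of all genes 26.9% differed (9.16% higher and 17.8% lower), so the 13 lie near the background.

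**Figure D4:**
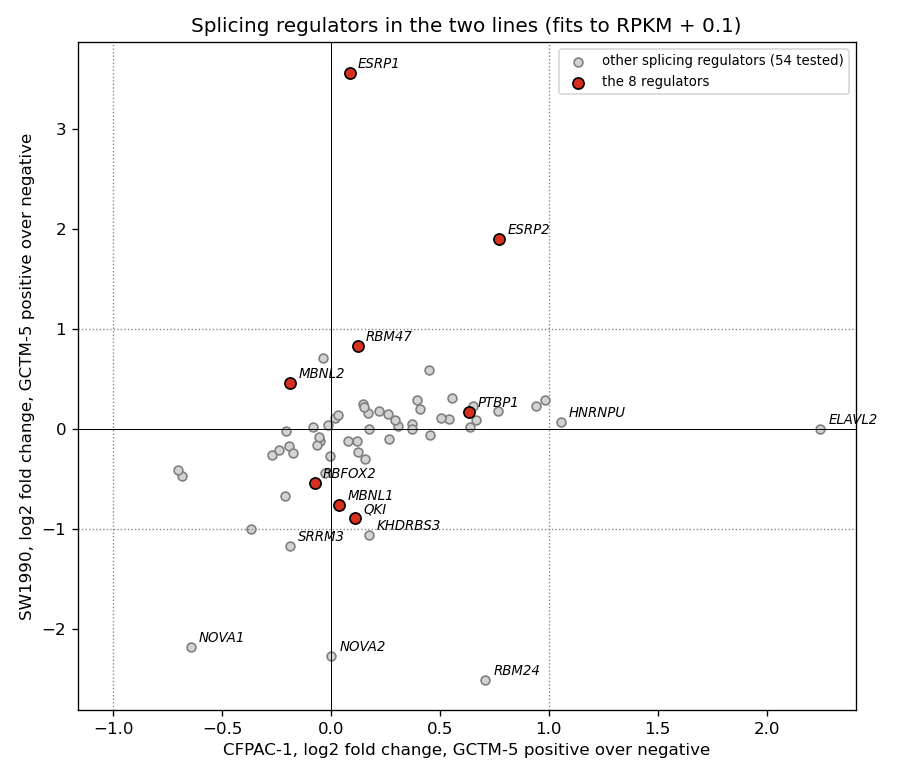
Log2 fold change of GCTM-5 positive over negative cells in SW1990 (vertical axis) and CFPAC-1 (horizontal axis), 1 point per gene, for the 8 regulators (red) and 54 other splicing regulators (grey); dotted lines mark a 2-fold change. *ESRP1* at 3.56 and *ESRP2* at 1.90 are the only points above the upper dotted line, and *NOVA2* in CFPAC-1 and *ELAVL2* in SW1990 stand at 0 because no read was found there.

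Genes whose exons these proteins are known to regulate were examined at the level of the whole gene. Of 14 such target genes 3 were called in SW1990 (1 higher and 2 lower, against 12.1% of all genes) and 0 in CFPAC-1 (against 9.78%). In CFPAC-1 8 had an unadjusted p under 0.05 in limma and 1 was called with voom. At an adjusted p under 0.05, 4 were higher and 3 lower in CFPAC-1, against 22.3% and 14.2% of all genes. *FGFR2*, whose mutually exclusive receptor exons are the classic ESRP target, rose from 0.286 ± 0.0180 to 3.16 ± 0.886 RPKM in SW1990 (log2 3.04, adjusted p = 2.94e-06). In CFPAC-1 it was at 0.499 ± 0.153 and 0.993 ± 0.0490 RPKM (log2 0.90, adjusted p = 0.0142). *CD44*, a hyaluronan receptor with a block of variable exons, fell in SW1990 from 292 ± 17.1 to 123 ± 17.4 RPKM (log2 -1.26, adjusted p = 2.08e-06), and was at 125 ± 1.07 and 101 ± 4.05 RPKM in CFPAC-1. *ENAH*, an actin regulator, fell in SW1990 from 9.67 ± 0.749 to 3.73 ± 0.238 RPKM (log2 -1.35, adjusted p = 3.67e-05). In CFPAC-1 its values were higher in positive cells (6.37 ± 0.821 and 9.11 ± 1.80 RPKM, log2 0.50, adjusted p = 0.0233), and the lines differed by -1.85 (adjusted p = 1.02e-04). *CTNND1*, which encodes p120-catenin, had a log2 value of 0.41 in SW1990 (adjusted p = 0.00211) and -0.12 in CFPAC-1 (adjusted p = 0.274). The median log2 change over the 14 was 0.13 in SW1990 and 0.03 in CFPAC-1. These values are those of whole genes, so a change of isoform would not appear in them.

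Transcription factors of the epithelial to mesenchymal transition, which are known to act on the *ESRP* genes among others, were set beside them. Of 8 listed, 7 were tested and *TWIST1* was at 0 in all samples. In SW1990 *GRHL2*, *OVOL1* and *OVOL2*, known for keeping the epithelial state, rose, and *ZEB1*, *ZEB2* and *SNAI1*, known for repressing it, fell. Of all genes tested, 4.59% were called higher and 7.48% lower there. *ZEB1* fell from 32.0 ± 0.0686 to 2.63 ± 0.307 RPKM (log2 -3.56, adjusted p = 1.48e-08), and *GRHL2* rose from 4.70 ± 1.01 to 33.0 ± 1.43 RPKM (log2 2.81, adjusted p = 2.52e-07). *OVOL1* rose from 0.461 ± 0.223 to 8.69 ± 1.16 RPKM (log2 4.04) and *OVOL2* from 1.37 ± 0.441 to 8.83 ± 0.352 RPKM (log2 2.65). *ZEB2* fell by 2.64 and *SNAI1* by 1.81 on the log2 scale. *ZEB2* was low, at 0.860 to 1.20 RPKM in SW1990 negative and 0.0505 to 0.111 RPKM in SW1990 positive samples. Its call was lost with a pseudocount of 1 (log2 -0.89). *SNAI2* did not pass in either line (adjusted p = 0.647 and 0.348).

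In CFPAC-1 2 of the 7 factors were called, 1 higher and 1 lower, where 5.65% of all genes were called higher and 4.13% lower. *OVOL2* was higher by less than 2-fold (log2 0.67, adjusted p = 0.019), as was *ESRP2* above. *SNAI1* (log2 0.82) was called higher without CFPAC-1 negative replicate 2 (1.05), and *ZEB2* (log2 -0.71) was called lower with voom on the recovered reads (-1.80). *ZEB1* fell from 6.79 ± 0.851 to 2.51 ± 0.0433 RPKM (log2 -1.39, adjusted p = 1.91e-05). *GRHL2* rose from 13.7 ± 1.08 to 28.6 ± 5.09 RPKM (log2 1.04, adjusted p = 5.34e-04). That value dropped under 2-fold without CFPAC-1 negative replicate 1 (0.97) or CFPAC-1 positive replicate 1 (0.91), with median centring (0.94), with quantile normalization (0.93) and with a pseudocount of 1 (0.99). *OVOL1*, at 7.83 ± 1.92 and 7.95 ± 0.765 RPKM, overlapped. In the CFPAC-1 samples *ESRP1* ranged from 35.2 to 48.7 RPKM, and *ZEB1* from 2.48 to 7.65 RPKM. Whether these factors act on the *ESRP* genes in these cells was not tested. *ZEB1* was lower in CFPAC-1 negative than in SW1990 negative cells by a log2 difference of 2.23 (SW1990 minus CFPAC-1, adjusted p = 1.25e-08).

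**Figure D5:**
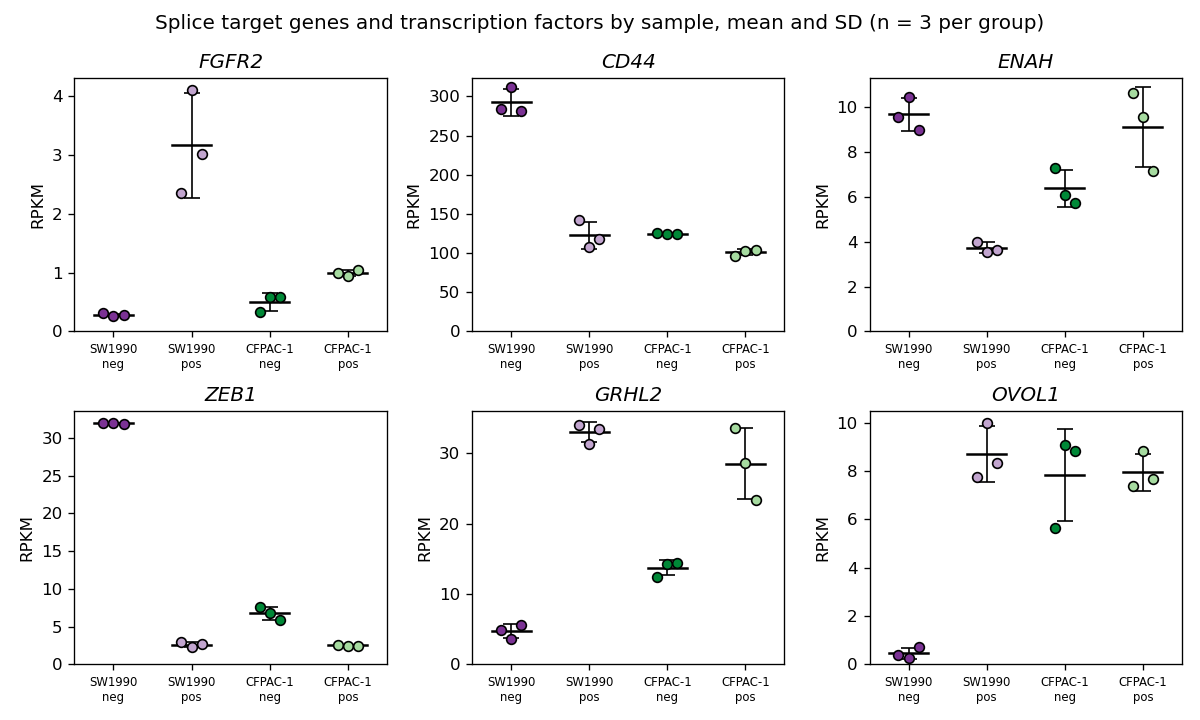
RPKM (vertical axis, from 0) of the target genes *FGFR2*, *CD44* and *ENAH* and the transcription factors *ZEB1*, *GRHL2* and *OVOL1* by line and GCTM-5 population; points are samples and lines the mean and SD (n = 3). In SW1990 negative cells *ZEB1* stands near 32.0 RPKM and *OVOL1* at or below 0.711 RPKM, apart from the other groups.

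Other genes shared the pattern of *ESRP1* or *QKI* over the 12 samples. By the Pearson correlation of log2(RPKM + 0.1) among the 13266 genes whose mean reached 1 RPKM, the genes most like *ESRP1* were *MAL2*, *STYK1*, *MAP7*, *LLGL2* and *C1orf172* (r from 0.98 to 0.99). *MAL2*, a protein of apical transport, was at 64.8 ± 14.4 RPKM in SW1990 negative, 532 ± 57.3 in SW1990 positive, 389 ± 20.4 in CFPAC-1 negative and 484 ± 75.3 RPKM in CFPAC-1 positive cells (SD, n = 3). *LLGL2*, a polarity protein, was at 2.17 ± 0.703, 22.8 ± 2.66, 12.4 ± 1.26 and 10.9 ± 0.467 RPKM in the same order of groups. The genes most like *QKI* were *RGS4*, *TNS3*, *FLCN*, *KLF12* and *MAP3K3* (r from 0.98 to 0.99). *TNS3*, a focal adhesion protein, was at 73.9 ± 5.77, 38.6 ± 1.23, 23.1 ± 4.60 and 24.3 ± 1.36 RPKM in that order. The 12 points share 4 groups and their libraries, so these values describe likeness across groups and were not tested.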

How the data were processed

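Poly(A) RNA-seq of sorted SW1990 and CFPAC-1 cells was analysed, 3 samples in each of 4 groups taken from the sample titles. Alignment by the authors was to hg19 (GRCh37), and QuasR served them to turn reads per gene into the deposited RPKM values. Their submitters' notes also name bcl2fastq. The annotation, the use of strand and the handling of reads matching several genes are not given in the sources used here, so antisense and paralogous reads may be shared. The labels name a strand-specific SureSelect kit and the paper a TruSeq kit.

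Reads behind each value were recovered from the steps of the RPKM values, whole to within 0.01 of a read for 19654 of the 19654 genes above 0, with at least 1 read behind each value above 0, and served for read counts and an alternative only. Floors of 3 reads cover counting error only, and the 95% intervals come from the limma fit and cover the spread between samples. The log2 of RPKM plus 0.1 was fitted for the 16236 genes averaging 0.1 RPKM or more, using limma 3.58.1 in R 4.3.3 (4 group means, intensity trend, 2-sided). Fold changes are on this scale, which understates those of low genes. Genes were called at over 2-fold and p under 0.01. For the difference between lines the limit was an adjusted p of 0.05 (Benjamini-Hochberg, over all genes). TCC, which the authors used, was not used here. Positions are from GENCODE 44 on GRCh37, by symbol.

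The 8 genes and all lists were chosen with earlier results of these data known. Named genes were the 8, their family relatives, up to 4 called other regulators per direction and line, called targets and transcription factors, and the 5 genes most correlated with *ESRP1* and with *QKI*. Where further genes are named, their list was named in full or they were chosen after their values were seen. Alternatives were other pseudocounts, filters, scalings and thresholds, a fit without trend, voom on recovered reads, a replicate block, and each of the 12 samples left out. Python 3.11.15 with pandas 2.3.3, numpy 2.4.6 and matplotlib 3.10.9 was used.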

Additional observations from a re-analysis of the deposited data

Results flagged for a closer look

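The change with GCTM-5 differed between the lines, by the test of the difference itself, for each of the 8 regulators, where 26.9% of all genes tested differed. With median centring 6 of the 8 differed, *RBFOX2* and *PTBP1* being lost. As log2 change in SW1990 minus that in CFPAC-1, the difference was 3.48 for *ESRP1*, 1.13 for *ESRP2*, 0.71 for *RBM47* and 0.64 for *MBNL2*. It was -1.01 for *QKI*, -0.80 for *MBNL1*, -0.47 for *RBFOX2* and -0.47 for *PTBP1*, whose adjusted p of 0.0343 in limma was the largest of the 8 and whose call was lost in 12 of 21 alternatives.

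Among family relatives and other splicing regulators the same difference was 0.75 for *PTBP3*, -0.52 for *KHDRBS1*, -1.24 for *KHDRBS3*, -3.22 for *RBM24*, -1.54 for *NOVA1* and -0.99 for *HNRNPU*. *NOVA1* was at 2 reads in each SW1990 positive sample, so its fitted difference depends on the value added before taking log2. The difference of *RBM24*, also a low gene, ran from -4.60 to -1.05 over the alternatives. The *KHDRBS3* difference (adjusted p = 0.0437) was no longer called in 13 of 21 alternatives, among them no filter (0.0586), median centring (0.0767) and voom (0.0544), and that of *KHDRBS1* was lost with median centring (0.0634).

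Among target genes it was 2.14 for *FGFR2*, -0.96 for *CD44* and -1.85 for *ENAH*. Among transcription factors it was -2.17 for *ZEB1*, -1.92 for *ZEB2*, -2.62 for *SNAI1*, 1.77 for *GRHL2*, 3.99 for *OVOL1* and 1.98 for *OVOL2*. The *ZEB2* difference was not called with a pseudocount of 0.01 (adjusted p = 0.0629) or with voom (0.0539). *SNAI1* and *ENAH* had fitted changes of opposite sign in the lines, lower in SW1990 positive cells and higher in CFPAC-1 positive cells.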

How the results depend on the processing

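Of 872 values of the 8 regulators recomputed under the alternatives, 845 kept their direction and their side of the threshold. The 11 reversed ones were all of values that had not passed a test. In CFPAC-1, *ESRP1* became -0.014 with median centring, -0.032 with quantile normalization and -0.0073 to 0.23 on leaving out each library. *MBNL1* became -0.062 with either scaling and -0.047 to 0.17 on leaving out each library. *PTBP1* between positive cells became -0.036 with centring and -0.077 to 0.094 on leaving out each library. Among other genes in CFPAC-1, *OVOL1* became -0.052 with centring, -0.064 with quantile normalization and -0.17 to 0.17 on leaving out each library, which also turned the sign of *KHDRBS3* (-0.21 to 0.43), *PTBP2* (-0.039 to 0.32), *PTBP3* (-0.20 to 0.16) and *SRRM3* (-0.45 to 0.035). The same held for *HNRNPU* in SW1990 (-0.030 to 0.17) and the line difference of *MBNL3* (-0.031 to 0.31), and that of *NOVA1* became 0.014 with a pseudocount of 1.

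Without the fold threshold, at an adjusted p under 0.05, the regulators called were 7 in SW1990, 2 in CFPAC-1, 7 between negative and 7 between positive cells. The other regulators called were 12 in SW1990 and 20 in CFPAC-1, and the targets 7 in each line. Of all genes tested, 28.2% passed this rule in SW1990, 36.5% in CFPAC-1, 68.9% between negative and 62.3% between positive cells. The other regulators called in SW1990 were 0 with a pseudocount of 1 and 3 at a mean RPKM of at least 1. In CFPAC-1 they were 1 with either of these, with centring and with quantile normalization, and 1 to 4 on leaving out each library. Those whose change differed between the lines were 8 with centring and 9 to 18 on leaving out each library. Targets called in CFPAC-1 were 1 with a pseudocount of 0.01 or voom and 0 to 1 on leaving out each library, the gene being *FGFR2*. The cause of these moves was not tested.

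Within a line, deviations of same-numbered samples correlated at -0.059 to 0.185, over 0.1 in 2 of 6 pairs, and 1 of the 6 matched best with its own number, so the numbers were not used to pair samples. Across the lines such correlations ran from -0.051 to 0.211. Between SW1990 positive and CFPAC-1 positive samples they were 0.125, 0.104 and 0.003, each the best match by number. Whether same-numbered samples of the lines shared a batch was not tested. With the replicate block, 40 of 40 values of the 8 regulators kept their direction and side of the threshold, with 2 regulators called in SW1990 and 0 in CFPAC-1. With 3 samples a group, an exact permutation test cannot go below 0.1, so calls rest on the model.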
